A study of Mus musculus with 28 samples.

Results

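The genes described here encode the taste receptors and the trace amine receptors of the mouse. They were chosen by symbol, as the protein-coding genes of the mm10 annotation (GENCODE M21) whose names start with Tas1r, Tas2r or Taar, with no measured value used. There were 53 of them among 21755 protein-coding genes on chromosomes 1 to 19 and X, with 3 Tas1r, 35 Tas2r and 15 Taar genes. The question was where each gene start lies relative to domains of the histone mark H3K9me2, and whether that place differs between cell states and after loss of the enzyme EHMT2.

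These genes are G protein-coupled receptors that serve sensory cells. Tas1r proteins pair up to detect sweet and umami taste, with Tas1r3 shared by the Tas1r2 (sweet) and Tas1r1 (umami) receptors. Tas2r proteins detect bitter compounds. Among the Taar proteins, Taar1 responds to trace amines in the brain, and the others are olfactory receptors for volatile amines. Most Tas2r and Taar genes have their coding sequence in a single exon and lie in tandem clusters that grew by gene duplication. H3K9me2 is a mark of repressed chromatin that EHMT2 and its partner EHMT1 deposit over broad regions, and receptor genes of the sensory organs are not normally used in embryonic stem cells.

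H3K9me2 was profiled by ULI-NChIP, a native immunoprecipitation for low cell numbers, in BL6/129 hybrid mouse embryonic stem cells (mESCs), with the dTAG degron and an mCherry reporter joined to endogenous Ehmt2. All groups carry this allele. The series has 28 libraries, with input chromatin for each immunoprecipitation. In the line that also carries a MERVL-GFP reporter, cultures received DMSO or the degrader dTAG-13 for 72 h, and cells were sorted into mESCs without GFP and 2CLCs with it (2-cell-like cells, a rare state named after the early embryo), which gave 4 conditions with 3 immunoprecipitated and 3 input libraries each. The sorted experiments were independent experiments on 1 clone. The labels add that TTNBP, an agonist of the retinoic acid receptor, was given in 2 of the replicates without saying which, whereas the methods describe the sorted treatment as carried out with TTNBP and make no exception. Whether every sorted replicate received it is therefore unclear. Bulk mESCs without that reporter had DMSO for 24 h and have 2 immunoprecipitated and 2 input libraries.

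The deposited values are positions of domains, in 5 lists. Of these, 4 name a sorted condition, and the other, called the unnamed set here, names neither a state nor a treatment and was put in no group. Each list stands for a whole condition. No gene has a replicate value, no difference below could be set against the spread between cultures, and the depth behind each domain is unknown. Where 4 values follow each other below, they belong to mESC DMSO, mESC dTAG, 2CLC DMSO and 2CLC dTAG in this order. These sets held 4323, 7312, 4246 and 8820 domains, with median widths of 140, 60.0, 115 and 60.0 kb. A domain is a call and not a level of the mark. Calls were made by percentiles of the signal, so a fall of the mark over the whole genome need not change them. The study reports such a fall after EHMT2 depletion. A start that stays in or enters a domain therefore does not show that the mark was kept or gained there. With no expression values in these lists, the sorted identity of the cells and the loss of EHMT2 could not be checked here.

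The 53 genes lie on 5 chromosomes, and 33 are on chromosome 6. When starts at most 500 kb apart were joined, 47 genes fell into 5 clusters and 6 stood alone. On chromosome 6 the bitter receptor clusters were called A (3 genes, Tas2r137 to Tas2r138, chr6:40491233-40613310), B (5 genes, Tas2r139 to Tas2r126, chr6:42140936-42435464), C (6 genes, Tas2r130 to Tas2r114, chr6:131629823-131690063) and D (18 genes, Tas2r120 to Tas2r140, chr6:132656953-133055816). The 15 Taar genes formed a single cluster from Taar1 to Taar9 (chr10:23920356-24109534). The single genes were Tas2r134 on chromosome 2, Tas1r1, Tas1r2 and Tas1r3 on chromosome 4, Tas2r118 on chromosome 6 and Tas2r119 on chromosome 15.

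The upstream sequence of 5 genes is printed to show the different kinds of start that the domains met. Taar2 was in a domain in every sorted set, Taar5 only in the DMSO sets, Taar7d only in the dTAG sets, and Taar9 and Tas1r3 in none of the sorted sets. Each line is the RefSeq window of 250 bases before to 50 bases after the start (300 bases, GRCm38.p6), read 5′ to 3′ on the gene's own strand, with every CG dinucleotide and every TATAAA, on either strand, in capitals. The windows are chr10:23938322-23938621 (plus strand, Taar2), chr10:23970456-23970755 (plus, Taar5), chr10:24026972-24027271 (plus, Taar7d), chr10:24109485-24109784 (minus, Taar9) and chr4:155863304-155863603 (minus, Tas1r3).
Taar2: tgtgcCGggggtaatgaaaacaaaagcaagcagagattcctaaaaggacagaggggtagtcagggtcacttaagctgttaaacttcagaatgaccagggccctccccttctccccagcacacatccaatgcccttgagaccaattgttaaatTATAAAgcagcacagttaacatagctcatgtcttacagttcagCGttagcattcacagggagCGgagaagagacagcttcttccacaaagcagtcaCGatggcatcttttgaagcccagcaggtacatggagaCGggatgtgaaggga
Taar5: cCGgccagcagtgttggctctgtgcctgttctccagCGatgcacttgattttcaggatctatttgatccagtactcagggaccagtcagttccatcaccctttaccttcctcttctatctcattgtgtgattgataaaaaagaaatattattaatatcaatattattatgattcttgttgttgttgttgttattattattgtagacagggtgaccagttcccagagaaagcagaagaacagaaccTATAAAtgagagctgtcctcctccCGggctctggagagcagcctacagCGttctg
Taar7d: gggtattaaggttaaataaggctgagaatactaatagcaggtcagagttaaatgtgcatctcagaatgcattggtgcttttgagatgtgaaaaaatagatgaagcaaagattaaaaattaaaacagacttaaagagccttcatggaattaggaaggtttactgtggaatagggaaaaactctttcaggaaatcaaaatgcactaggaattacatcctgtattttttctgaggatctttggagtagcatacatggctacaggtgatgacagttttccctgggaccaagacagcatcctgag
Taar9: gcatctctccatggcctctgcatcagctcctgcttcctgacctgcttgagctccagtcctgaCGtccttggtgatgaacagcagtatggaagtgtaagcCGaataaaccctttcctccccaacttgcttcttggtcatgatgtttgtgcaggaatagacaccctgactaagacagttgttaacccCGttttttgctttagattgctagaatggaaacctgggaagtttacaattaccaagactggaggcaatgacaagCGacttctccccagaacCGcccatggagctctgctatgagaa
Tas1r3: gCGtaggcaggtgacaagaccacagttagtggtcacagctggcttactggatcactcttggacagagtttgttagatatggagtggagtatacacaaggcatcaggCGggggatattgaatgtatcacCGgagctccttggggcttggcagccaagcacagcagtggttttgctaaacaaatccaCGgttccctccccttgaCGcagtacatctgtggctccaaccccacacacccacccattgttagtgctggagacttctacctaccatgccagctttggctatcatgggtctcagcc

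The windows of Taar2 and Taar5 hold a TATAAA, the letters of a TATA box, and those of Taar7d, Taar9 and Tas1r3 hold none. Taar7d has 0 CG dinucleotides in its window, Taar5 has 4, and Taar2, Taar9 and Tas1r3 have 5 each. Of the 53 genes, 45 had a RefSeq window, and their median was 1 CG against 14 over all 16449 protein-coding genes with a window. Their median GC content was 37.3%, against 57.0% over all windows. The receptor gene windows thus held few CG dinucleotides. Many Tas2r and Taar models are near coding length, so their windows may miss the true promoters, and the contrast is not one of promoters alone. The median was 2 CG over the windows of genes that started in a domain in all 4 sorted sets, and 19 over those of genes in none.

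Most bitter receptor genes, part of the trace amine receptor genes and none of the sweet and umami receptor genes started inside a domain. In mESC DMSO, 43 of the 53 starts (81.1%) were in a domain, where 22.3% of all 21755 protein-coding genes were. In mESC dTAG the count was 34 (64.2%, against 23.6% of all genes). In 2CLC DMSO it was 40 (75.5%, against 23.2%), and in 2CLC dTAG it was 41 (77.4%, against 26.5%). The receptor genes were therefore above the background share in each set, and mESC dTAG had the fewest.

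By family, the Tas2r counts were 35, 29, 35 and 33 of 35 in mESC DMSO, mESC dTAG, 2CLC DMSO and 2CLC dTAG. The Taar counts were 8, 5, 5 and 8 of 15 in the same order. The Tas1r count was 0 of 3 in every set. The starts are not separate observations, since neighbours share domains: the starts inside domains lay in 9, 8, 8 and 12 different domains.

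**Figure D1:**
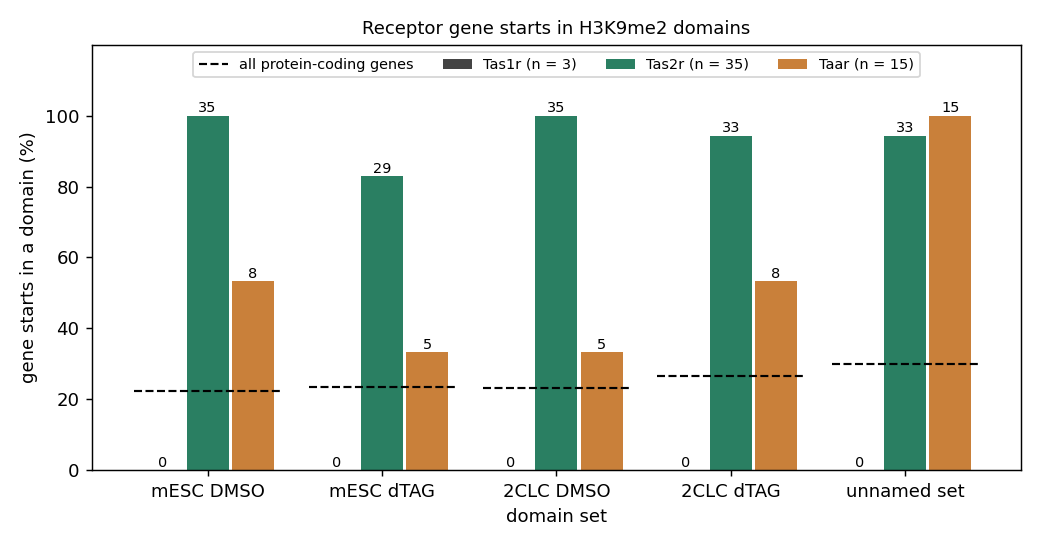
Percent of gene starts in an H3K9me2 domain (vertical axis) in the 5 domain sets (horizontal axis), with bars for Tas1r (3 genes), Tas2r (35) and Taar (15), the number of genes above each bar, and a dashed line for all protein-coding genes. The Tas2r bars stand above the dashed line in each set with 29 to 35 genes, the Taar bars range from 5 to 15 genes, and the Tas1r bars are at 0.

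Across the sorted sets, 31 of the 53 genes (58.5%, against 15.1% of all genes) were in a domain in all 4. These were 29 Tas2r genes, Taar1 and Taar2. A further 7 (13.2%, against 65.8%) were in a domain in none of the 4, namely the 3 Tas1r genes, Taar8a, Taar8b, Taar8c and Taar9. The call differed between sorted sets for the remaining 15 (28.3%, against 19.1%), which were 6 Tas2r genes of clusters A and B and 9 Taar genes. Starts in none of the 4 cannot differ, and these were 65.8% of all genes but 13.2% of receptor genes. The gap between 28.3% and 19.1% is thus no sign that receptor calls varied more. Among starts that met a sorted domain, 15 receptor genes differed and 31 were in all 4. Over all genes these counts were 4150 and 3284, so by this measure receptor calls differed less often.

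**Figure D2:**
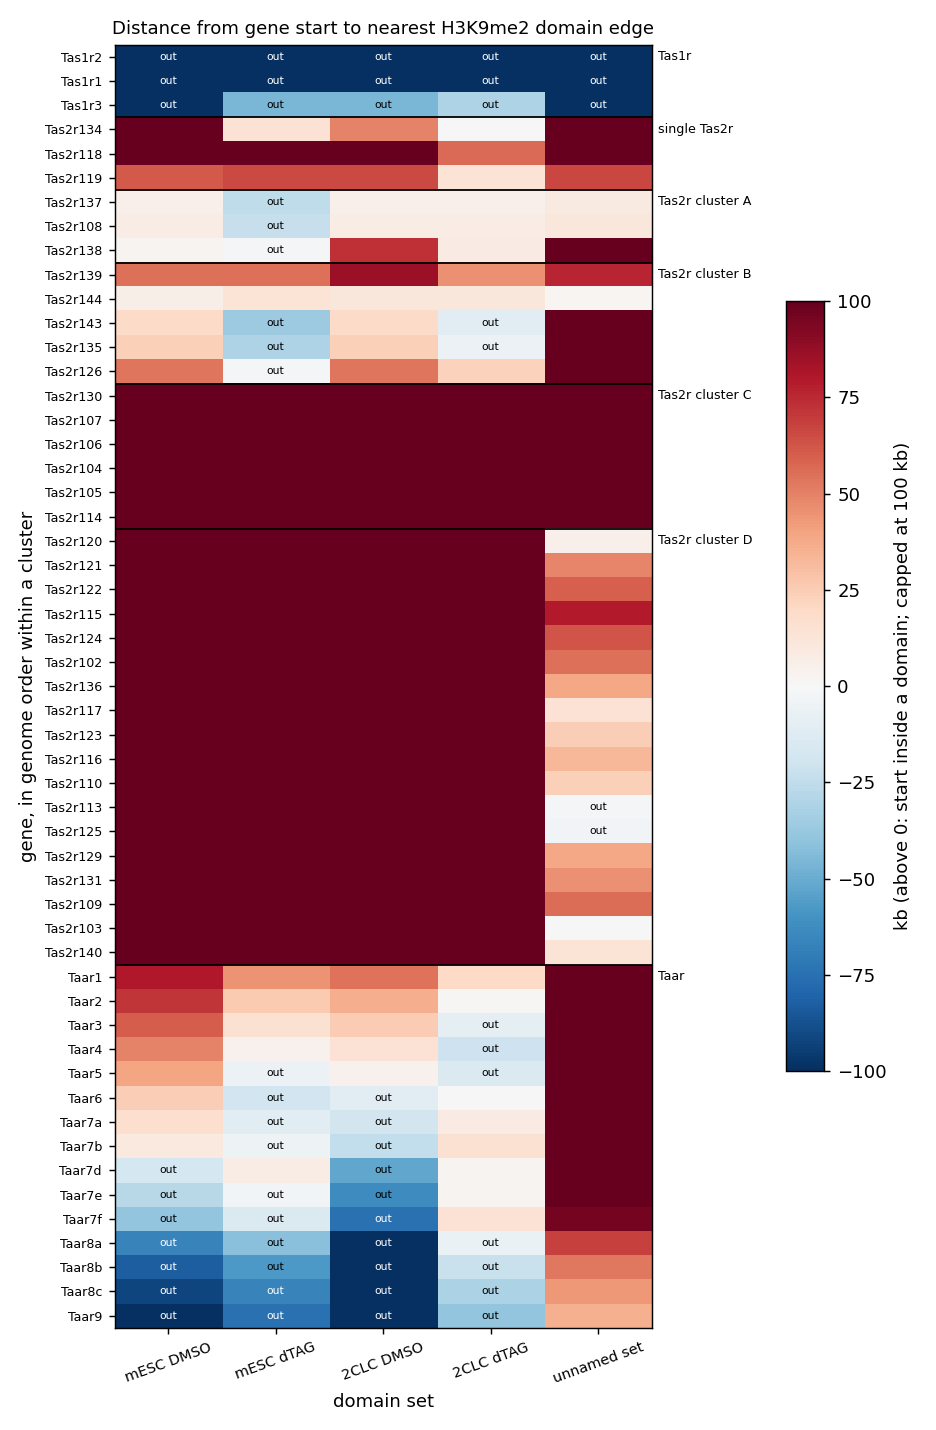
Distance in kb from each gene start (rows, in genome order within a cluster) to the nearest domain edge in each of the 5 sets (columns), with red for starts inside a domain, blue and the word out for starts outside, and colours capped at 100 kb. Clusters C and D are deep inside a domain in all sorted sets, the Tas1r genes are outside in every set, and the calls that differ between sorted sets lie in clusters A and B and in the Taar cluster.

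The sweet and umami receptor genes were outside domains throughout. Positions are given as a signed distance from the start to the nearest domain edge, above 0 inside a domain and below 0 outside. For Tas1r1, the umami partner, it was -4184 kb and -786 kb for mESCs in DMSO and dTAG, and -3871 kb and -456 kb for 2CLCs. For Tas1r2, the sweet partner, it was -606, -286, -3756 and -286 kb in the same order. Tas1r3, the shared subunit, was at -8009 kb in mESC DMSO and much nearer to a domain in the others, at -46.0, -46.0 and -31.0 kb.

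Over all protein-coding genes, the median signed distance was -171, -78.2, -173 and -50.1 kb. The shorter distances of all 3 Tas1r genes in dTAG than in mESC DMSO thus went with a shorter median distance over all genes. The nearest coding genes on either side of the Tas1r genes (Aldh4a1 and Pax7 beside Tas1r2, Zbtb48 and Nol9 beside Tas1r1, Dvl1 and Cptp beside Tas1r3) were outside domains in all 5 sets as well.

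The bitter receptor clusters C and D, with 24 genes between them, lay in a single wide domain that was present in each sorted set. In mESCs it spanned chr6:131511233-133871229 with DMSO (2360 kb) and chr6:131516233-133706229 with dTAG (2190 kb). In 2CLCs it spanned chr6:131471233-133936229 with DMSO (2465 kb) and chr6:131481233-133871229 with dTAG (2390 kb). The domain was the narrowest in mESC dTAG and the widest in 2CLC DMSO. In mESCs its left-hand edge lay 1 bin of 5 kb farther in with dTAG, and the rest of the difference was at its right-hand edge. There a gap of 1 bin parted it from the next domain in both treatments. Counted from the first base of Tas2r130, the gap lay at 2241 to 2246 kb with DMSO and 2076 to 2081 kb with dTAG. With dTAG the next domain reached 2286 kb. The widths thus differed by where a gap fell, and not by as much sequence outside domains.

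Of these 24 genes, the first, Tas2r130, was 120, 115, 160 and 150 kb inside the domain. Tas2r120, at the left of cluster D, was 1146, 1049, 1186 and 1176 kb inside. Tas2r140, at the right of cluster D, was 815, 650, 880 and 815 kb inside. All bases of clusters C and D (100%) were in this domain in each sorted set. Among neighbours, Prb1 on the right of cluster C, A630073D07Rik and Smim10l1 on either side of cluster D were in a domain in all sorted sets, and 5430401F13Rik on the left of cluster C was in a domain in all but mESC dTAG.

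The 3 Tas2r genes that stand alone were also in a domain in every sorted set, but the domain around them was narrower in dTAG. The start of Tas2r134 was in a domain of 540 kb in mESCs with DMSO and of 60.0 kb with dTAG, and in 2CLCs of 375 kb with DMSO and of 20.0 kb with dTAG. Its signed distance was 125, 14.6, 49.6 and 0.399 kb, so in 2CLC dTAG the start was at the domain's very edge, with 44.4% of the gene body covered. This is nearer than the 5 kb grid on which domains were called can resolve.

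Tas2r118 was in domains of 625, 245, 675 and 205 kb, with signed distances of 126, 111, 134 and 56.3 kb. Tas2r119 was in domains of 620, 145, 615 and 70.0 kb, with signed distances of 61.4, 66.4, 66.4 and 13.6 kb. In both cell states the domain at each of the 3 single genes was narrower in dTAG than in DMSO. Over all protein-coding genes, the domain holding a start had a median width of 640 kb with DMSO and 390 kb with dTAG in mESCs. In 2CLCs these medians were 735 and 260 kb, so narrower domains in dTAG were not particular to the single genes. The neighbours of Tas2r118, Cadps2 and Slc13a1, were in a domain in all sorted sets, and those of Tas2r119, Fam173b and Sema5a, in none. Rnd3 and Rbm43, beside Tas2r134, were in a domain in 2CLC DMSO, and Rbm43 also in 2CLC dTAG.

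Clusters A and B held all the bitter receptor genes whose call differed. In cluster A, the 3 genes were in a domain in mESC DMSO, 2CLC DMSO and 2CLC dTAG and outside in mESC dTAG. The start of Tas2r137 was at 4.88, -25.1, 4.88 and 4.88 kb. Tas2r108, a receptor for quinine, was at 7.17, -22.8, 7.17 and 7.17 kb. Both genes share the left edge of the same domain, which lay at the same base in the 3 sets that held them.

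Tas2r138, the counterpart of the human receptor for phenylthiocarbamide, sits at the other end of cluster A. Its start was at 3.04, -1.96, 73.0 and 8.04 kb. The value outside a domain was thus within 1 bin of the edge. A single domain covered 100% of cluster A in each DMSO set. In dTAG 2 domains were left in each state, and they covered 69.6% in mESCs and 87.7% in 2CLCs.

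The neighbour on the left of cluster A, Ssbp1, was outside domains in all sets. Mgam, the gut enzyme gene on its right, was in a domain in both DMSO sets and in neither dTAG set. Of 4 other coding genes that start within cluster A, 3 were in a domain in all sorted sets, and Clec5a, named after its values were seen, had the same calls as Mgam.

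Cluster B is split by a stretch of 7 other coding genes, from Gstk1 to Epha1, none of which (0 of 7) started in a domain of a sorted set. On the left of it, Tas2r139 and Tas2r144 were in a domain in all 4 sorted sets. Tas2r139 was at 55.4, 55.4, 85.4 and 45.4 kb, and Tas2r144 at 6.02, 14.0, 11.0 and 11.0 kb. The neighbouring genes on the outer sides, Sva and Olfr458, were in a domain in all sets.

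On the right, Tas2r143, Tas2r135 and Tas2r126 shared a domain of 200 kb in mESC DMSO (chr6:42381351-42581350) and one of 115 kb in 2CLC DMSO (chr6:42381351-42496350). In mESC dTAG no domain touched this end of the cluster, and the next domain began just beyond the start of Tas2r126. In 2CLC dTAG a domain of 165 kb was present (chr6:42411351-42576350), with its left edge to the right of Tas2r143 and Tas2r135. Tas2r143 was at 18.9, -36.1, 18.9 and -11.1 kb. Tas2r135 was at 24.1, -30.9, 24.1 and -5.92 kb. Tas2r126 was at 53.2, -1.82, 53.2 and 23.2 kb, and so was outside in mESC dTAG alone, by less than 1 bin. Domains covered 44.0%, 29.0%, 47.4% and 35.5% of cluster B in the same order of sets.

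**Figure D3:**
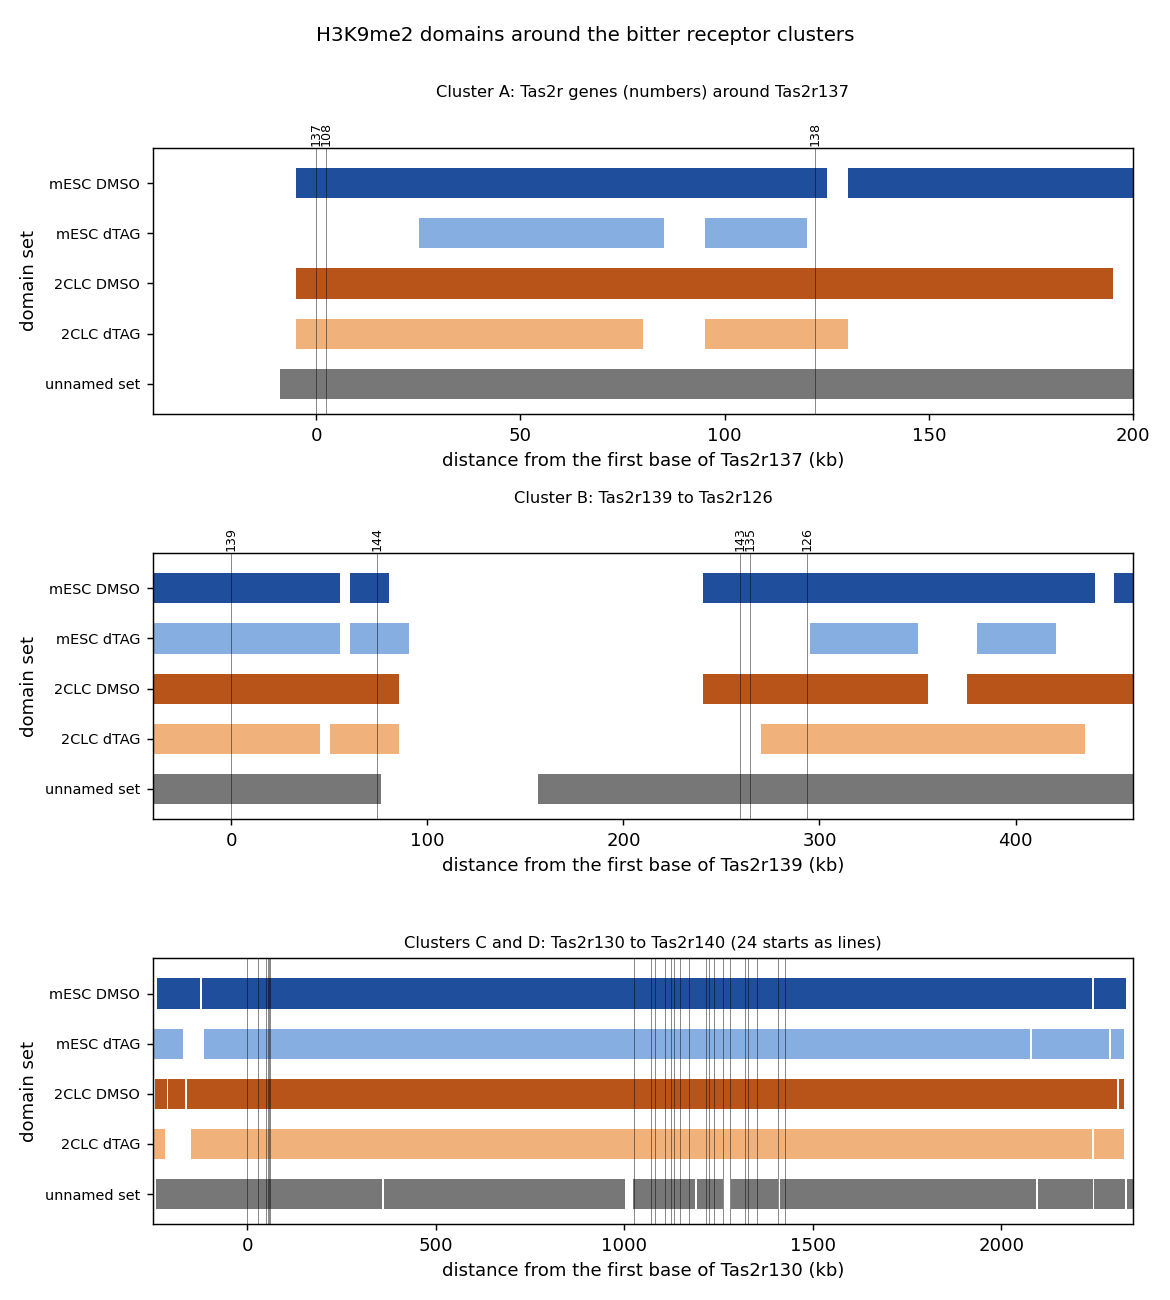
H3K9me2 domains around the Tas2r clusters (bars), by domain set (rows), along the distance in kb from the first base of the first gene of clusters A, B and C, with gene starts as vertical lines and bars cut at the frame. In cluster A dTAG leaves 2 domains in place of 1 in each state, in cluster B the right-hand domain of mESC dTAG begins just past the start of Tas2r126, and clusters C and D share a single domain of 2190 to 2465 kb in the sorted sets, with further domains close by on both sides.

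The trace amine receptor cluster was crossed by a domain edge in every sorted set, and the edge fell at a different gene each time. In mESC DMSO a domain of 170 kb (chr10:23839970-24009969) held Taar1 to Taar7b. In mESC dTAG a domain of 120 kb (chr10:23844970-23964969) held Taar1 to Taar4, and a second one of 30.0 kb (chr10:24004970-24034968) held Taar7d. In 2CLC DMSO a domain of 155 kb (chr10:23819970-23974969) held Taar1 to Taar5.

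In 2CLC dTAG there were 3 domains, of 125 kb (chr10:23814970-23939969, Taar1 and Taar2), 45.0 kb (chr10:23984970-24029968, Taar6 to Taar7d) and 35.0 kb (chr10:24034969-24069968, Taar7e and Taar7f). In each state the left-hand domain thus ended nearer to Taar1 in dTAG than in DMSO, and separate narrow domains lay over part of the Taar7 group. In all, domains covered 47.4% and 39.4% of the cluster in mESCs with DMSO and dTAG, and 28.9% and 52.7% in 2CLCs. Without the domains under 50 kb, 10.4% was covered in 2CLC dTAG, and the change in 2CLCs was then a fall.

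**Figure D4:**
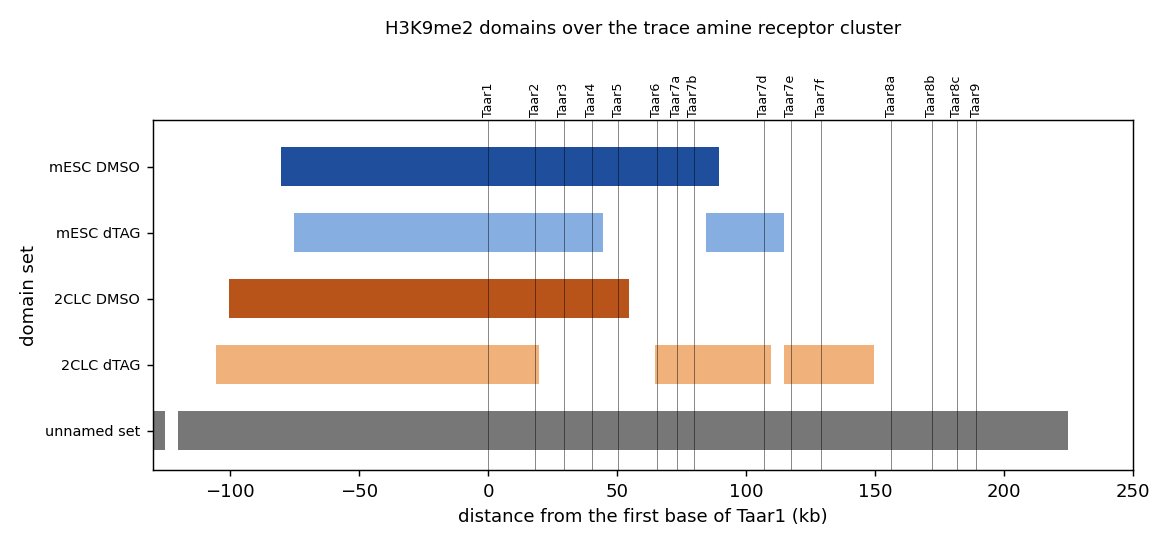
H3K9me2 domains over the Taar cluster (bars), by domain set (rows), along the distance in kb from the first base of Taar1, with the 15 gene starts as named vertical lines. The left-hand domain ends after Taar7b, Taar4, Taar5 and Taar2 in mESC DMSO, mESC dTAG, 2CLC DMSO and 2CLC dTAG, and narrow domains hold Taar7d in mESC dTAG and Taar6 to Taar7f in 2CLC dTAG.

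Taar1, the brain trace amine receptor, was the deepest of the family, at 80.4 and 44.6 kb in mESCs with DMSO and dTAG, and at 54.6 and 19.6 kb in 2CLCs. Taar2 was at 71.4, 26.4, 36.4 and 1.40 kb. Both stayed in a domain in the 4 sorted sets, with the lowest value in 2CLC dTAG. In that set the start of Taar2 was within 1 bin of the edge, with 46.4% of the gene body covered. Taar2 lost this call when the midpoint or every base of the gene body was used, and with domains shortened by 5 kb. Vnn1, a pantetheinase gene to the left of Taar1, was in a domain in all sets too.

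The next genes left the domain in 2CLC dTAG. Taar3, a receptor for isoamylamine, was at 60.4, 15.4, 25.4 and -9.59 kb. Taar4, which detects phenylethylamine, was at 49.5, 4.48, 14.5 and -20.5 kb. Taar5, the trimethylamine receptor, was at 39.3, -5.74, 4.26 and -14.3 kb, and was inside a domain in both DMSO sets and outside in both dTAG sets. Together with Tas2r143 and Tas2r135, it is 1 of 3 receptor genes that left a domain in both cell states (5.66%, against 1.63% of all genes). Only starts in a domain in both DMSO sets could do so, and receptor starts were more often there. In mESC DMSO, 81.1% of them were in a domain, against 22.3% of all genes. The gap between 5.66% and 1.63% is thus no sign that receptor genes left more often. Tas2r143 and Tas2r135 also shared a domain in each DMSO set.

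Taar6, Taar7a and Taar7b had the same calls as each other, inside in mESC DMSO and 2CLC dTAG and outside in mESC dTAG and 2CLC DMSO. Taar6 was at 24.3, -19.3, -10.7 and 0.676 kb, Taar7a at 16.5, -11.5, -18.5 and 8.51 kb, and Taar7b at 10.0, -5.03, -25.0 and 15.0 kb. Taar7d was inside in the dTAG sets alone, at -17.3, 7.75, -52.3 and 2.75 kb. Taar7e was inside in 2CLC dTAG alone, at -27.6, -2.65, -62.6 and 2.65 kb, as was Taar7f at -39.5, -14.5, -74.5 and 14.5 kb.

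The right-hand end of the cluster was outside domains in all sorted sets. Taar8a was at -66.5, -41.5, -102 and -6.53 kb, Taar8b at -82.3, -57.3, -117 and -22.3 kb, and Taar8c at -91.9, -66.9, -127 and -31.9 kb. Taar9 was at -99.6, -74.6, -135 and -39.6 kb. For these 4 genes the nearest domain was the closest in 2CLC dTAG and the farthest in 2CLC DMSO. Stx7, the syntaxin gene beyond Taar9, was outside in all 5 sets.

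Sequence that occurs more than once in the genome was not spread evenly over this cluster. Of the 50-base words in the gene body, 38.6% occurred more than once for Taar7a, 40.4% for Taar7b, 29.5% for Taar7d, 53.9% for Taar7e, 51.3% for Taar7f, 50.9% for Taar8a, 56.4% for Taar8b and 72.5% for Taar8c. The share was 0 for Taar1 to Taar5 and Taar9 and 0.101% for Taar6. Over the whole stretch from Taar1 to Taar6 it was 4.64%, and from Taar7a to Taar8c it was 14.4%. Short reads that lie wholly in such words match more than 1 place. The narrow dTAG domains lay over Taar7d in mESCs and over Taar6 and the Taar7 genes in 2CLCs, while the Taar8 genes, with shares as high, were in no sorted domain. The part of repeated sequence in the calls was not tested.

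To ask which calls differed after EHMT2 depletion, each gene's call in dTAG was set against its call in DMSO of the same state. In mESCs, 10 of the 43 genes in a domain in DMSO were outside in dTAG (23.3%), and 22.7% of all genes in a domain in DMSO were. The receptor genes thus left domains in mESCs about as often as genes in general. They lay in clusters A, B and the Taar cluster, and were 6 of 35 Tas2r genes (Tas2r137, Tas2r108, Tas2r138, Tas2r143, Tas2r135 and Tas2r126) and 4 of 8 Taar genes (Taar5, Taar6, Taar7a and Taar7b). Of the 10 genes outside in DMSO, 1 entered a domain (10.0%, against 8.14% of all genes), which was Taar7d.

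In 2CLCs, 5 of 40 genes left (12.5%, against 18.3% of all genes). They were Tas2r143, Tas2r135, Taar3, Taar4 and Taar5. Of 13 genes outside in DMSO, 6 entered (46.2%, against 9.80% of all genes). All 6 were neighbours in the Taar cluster, from Taar6 to Taar7f, so they stand for 2 narrow domains and not for 6 separate events. The sum of the changes was -9 genes in mESCs and 1 in 2CLCs, and with 1 set per condition this difference between states was not tested.

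The calls in 2CLC dTAG rest on narrow domains more than the others do. In that set 12 of the 53 starts lay within 10 kb of a domain edge, against 4, 7 and 3 in the other sorted sets. Over all 21755 protein-coding genes the counts were 2798 in 2CLC dTAG, against 1638, 2245 and 1545. The order of the sets was thus the same over all genes. When domains under 50 kb were left out, 9 of the 41 genes in a domain in 2CLC dTAG lost their call, among them all 6 that had entered, and 32 were left. The change in 2CLCs was then a fall, with 8 genes leaving and 0 entering. The gain of 1 gene in 2CLCs was also a loss when the midpoint of the gene body was used (40 genes in DMSO and 39 in dTAG), when every base had to be covered (40 and 38), and with domains shortened by 5 kb at both ends (38 and 35).

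Between the states in DMSO, 3 genes were in a domain in mESCs and not in 2CLCs (5.66%, against 3.10% of all genes). They were Taar6, Taar7a and Taar7b, neighbours that shared a domain in mESC DMSO. In 2CLCs alone, 0 genes were in a domain (against 3.99%). The shares depend on how many starts lie in domains at all. Of starts in an mESC DMSO domain, 3 of 43 receptor genes and 675 of all 4862 genes were outside in 2CLC DMSO. By this measure the receptor genes were below the background. In dTAG, 2 genes (3.77%, against 3.32%) were in a domain in mESCs alone, Taar3 and Taar4, and 9 (17.0%, against 6.24%) in 2CLCs alone. The 9 were Tas2r137, Tas2r108, Tas2r138, Tas2r126, Taar6, Taar7a, Taar7b, Taar7e and Taar7f. Without the domains under 50 kb, the counts in dTAG were 3 and 3, so the larger count in 2CLCs rests on narrow domains. Of starts in a 2CLC dTAG domain, 9 of 41 receptor genes and 1357 of all 5767 genes were outside in mESC dTAG. By this measure the receptor genes were not above the background.

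Other genes linked to taste, or to amine smell and trace amine metabolism, did not share the high counts of the receptor genes. Of 18 genes linked to taste transduction, 2 (11.1%) were in a domain in each sorted set, and 16 in none, where 65.8% of all genes were in none. The 2 were Gnat3, the taste G protein subunit gustducin, and Rgs21, a regulator of G protein signalling found in taste cells. Gnat3 was at 53.7, 78.7, 78.7 and 56.3 kb, and Rgs21 at 558, 373, 368 and 558 kb. The share of this list was below that of all genes in each set (22.3%, 23.6%, 23.2% and 26.5%), by few genes in a list of 18. The calls of both genes were the same in all 4.

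Of 18 genes linked to olfactory transduction and to trace amine synthesis and breakdown, 4 (22.2%), 3 (16.7%), 2 (11.1%) and 3 (16.7%) were in a domain in mESC DMSO, mESC dTAG, 2CLC DMSO and 2CLC dTAG. In none of the sorted sets were 12 of the 18, and 65.8% of all genes. Over all genes the shares were 22.3%, 23.6%, 23.2% and 26.5%. In a list of 18 genes these gaps amount to few genes. Counting any base of the gene body, 6, 6, 4 and 6 of the list were in a domain, so no reading below the background is drawn. Cnga2, the olfactory cation channel subunit, was inside in all 4, at 20.6, 15.6, 20.6 and 5.60 kb. Gnal, the olfactory G protein subunit, was inside in the dTAG sets alone, at -88.7, 11.3, -93.7 and 26.3 kb. The chloride channel gene Ano2 (24.2, -279, -45.8 and -279 kb) and the receptor transport gene Rtp2 (17.5, -2.51, -37.5 and -2.49 kb) were inside in mESC DMSO alone.

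The adjacent monoamine oxidase genes, whose enzymes break down trace amines, differed by cell state. Maoa was at -3.37 and -18.4 kb in mESC DMSO and dTAG and at 36.6 and 6.63 kb in 2CLC DMSO and dTAG. Maob was at 24.0 and 6.04 kb in mESCs and at -44.0 and -21.0 kb in 2CLCs. Maob was thus inside a domain in mESCs and Maoa in 2CLCs, in both treatments. Both lie on chromosome X, as does Cnga2, and the methods left this chromosome out of the scaling of coverage.

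The 3 families differed in the sequence around their starts, which the rule did not use. In the 100 kb around each start, the median GC content was 51.7% for Tas1r (at most 52.1%), 37.8% for Tas2r (35.9% to 43.1%) and 40.7% for Taar (40.0% to 41.9%), and 44.3% for all protein-coding genes. For genes in a domain in all 4 sorted sets the median was 39.3%, and for genes in none it was 46.3%. The Tas1r genes thus lay above the median of the genes in no domain, and the Tas2r median below that of the genes always in one, with single Tas2r genes on either side of it.

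The share of soft-masked bases, which are mostly transposable elements and simple repeats, was 23.5% for Tas1r, 41.8% for Tas2r and 37.3% for Taar in the median, against 30.4% for all genes. The 29 Tas2r genes in a domain in all 4 sets had a median GC content of 37.3% and 42.5% soft-masked bases. The 6 Tas2r genes with a call that differed had 40.2% and 32.7%. Neighbouring windows overlap, so these are descriptions of a few regions. Soft-masked bases did not run this way everywhere. Tas2r119 (24.0%) and Tas2r134 (33.2%) were in a domain in all 4 sets, as were Taar1 (33.9%) and Taar2 (27.9%), while Taar8a (39.9%), Taar8b (39.8%), Taar8c (38.1%) and Taar9 (36.5%) were in none. The part of base composition and repeats in the calls was not tested.

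**Figure D5:**
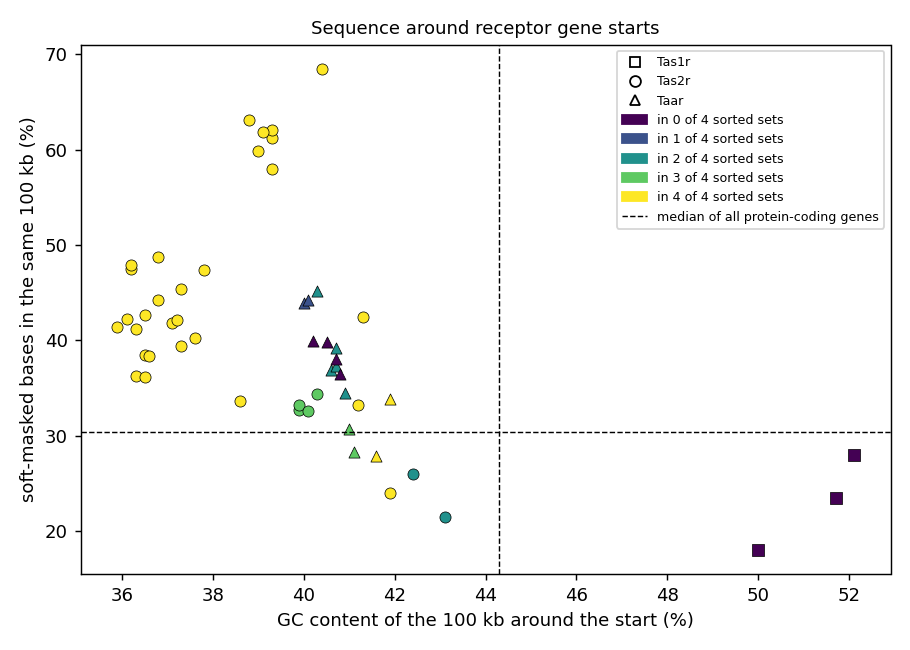
GC content (horizontal axis, percent) and soft-masked bases (vertical axis, percent) in the 100 kb around each of the 53 gene starts, with shapes for the families, colours for the number of sorted sets with the start in a domain, and dashed lines at the medians of all protein-coding genes (44.3% and 30.4%). The Tas1r genes stand apart on the right, around 51.7% GC, with no domain, and the Tas2r genes in all 4 sets lie at 35.9% to 41.9% GC.

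At the starts themselves, TATAAA was found on either strand in 16 of the 45 receptor gene windows (35.6%), against 12.9% of all windows and 32.9% of the windows of genes in a domain in all 4 sorted sets. TAATTA, a homeodomain core that reads the same on both strands, was found in 6 (13.3%), against 4.49% of all windows and 11.5% of those of genes in all 4 sets. The receptor shares were close to those of genes always in a domain. The letters of the motifs can share bases, and a match is not a site. As above, the windows of many receptor genes may miss the true promoters.

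In the unnamed set, 48 of the 53 starts (90.6%, against 30.0% of all genes) were in a domain, with 33 of the Tas2r genes, all 15 Taar genes and 0 Tas1r genes. A single domain of 345 kb (chr10:23799981-24144980) covered 100% of the Taar cluster there. Cluster D, which the sorted sets held in a single domain, was held by 4 domains that covered 92.5% of it. The Tas2r genes outside, Tas2r113 at -0.806 kb and Tas2r125 at -2.56 kb, were named after their values were seen. This set lies on another grid of bins, its source is not given, and no difference from the sorted sets was tested.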

How the data were processed

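Per the study's methods, the authors aligned reads with STAR in a mode that places multimapping reads, removed duplicates and high-signal regions, scaled coverage without chromosomes X and M, took log2 immunoprecipitation over input in overlapping windows with a 5 kb step, and extended bins above a high percentile until a bin fell below a low one. Whether replicates were pooled first was not given in the sources used here. The submitters' processing notes name STAR 2.7.10, Picard 2.26.0, SAMtools 1.14, bedtools 2.30.0, deepTools 3.5.1 and R 4.1.2. The deposited files hold domain starts and ends (mm10), with a score of 0 in every line. No domain ran past its chromosome end in GRCm38.p6 (0 of 31303).

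A gene was called in a domain when the first base of its GENCODE M21 model lay in one. Many Tas2r and Taar models are near coding length (36 of 50 lengths were multiples of 3), so true starts may lie upstream. Signed distances, covered bases and repeated 50-base words (either strand, whole genome) were computed with Python 3.11.15 and numpy 2.4.6, and the overlap code was tested on simulated data. All protein-coding genes were the background. With 1 list per condition no test was run. Named were genes whose call differed between sorted sets or was outside in all, the ends of clusters, single genes, nearest neighbours and pathway genes in a sorted domain. The genes, the 2 pathway lists and the tests were chosen with earlier results of these data known. Alternatives covered the part of the gene used, domain width, gaps, edges, clustering and pseudogenes.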

Additional observations from a re-analysis of the deposited data

Results flagged for a closer look

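The number of receptor gene starts in domains changed by -9 from DMSO to dTAG in mESCs and by 1 in 2CLCs, with opposite signs. The gain in 2CLCs does not hold up against the choices made, since it was a loss under 4 alternatives, with 40 genes in DMSO and 39 in dTAG by the midpoint of the gene body, 40 and 38 by every base of it, 40 and 32 with domains of at least 50 kb, and 38 and 35 with domains shortened by 5 kb. The share of the Taar cluster in domains changed by -7.93 percentage points in mESCs and by 23.8 in 2CLCs. With domains of at least 50 kb only, it fell in both states, from 47.4% to 23.6% in mESCs and from 28.9% to 10.4% in 2CLCs. Each condition is 1 list, and neither difference between states was tested. In the unnamed set, whose condition is not given, 4 genes that were outside domains in all sorted sets (Taar8a, Taar8b, Taar8c and Taar9) started inside one.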

How the results depend on the processing

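No paired analysis was possible because each condition is a single list and no result comes from a test, and for the same reason no replicate could be left out. Of 175 combinations of 37 results with an alternative, 147 stayed near the reported value and 28 moved. For counts, near meant within 1.5 times. For shares, distances and widths it meant inside an interval that took 5 kb bins or genes as separate, which neighbours are not, so it is a loose guide. Among results given as a single value 0 turned in sign, but counts, shares and widths cannot turn in sign, so this says little about stability. The cause of the moves was not tested except where the alternative itself removes domains. With domains of at least 50 kb only, entries with dTAG were 0 in mESCs and 0 in 2CLCs, 8 genes left in 2CLCs, 1 gene was in a domain in 2CLC alone in DMSO and 3 in dTAG, all clusters together were covered to 58.1% in mESC dTAG (66.1% as reported) and 59.0% in 2CLC dTAG (72.3%), and the Taar cluster to 23.6% and 10.4%. The change in 2CLCs turned from a gain of 1 gene into a loss under 4 alternatives, at 40 genes in DMSO and 32 in dTAG with this one, 40 and 39 with the midpoint of the gene body, 40 and 38 with every base of it, and 38 and 35 with shortened domains. The change of the Taar cluster in 2CLCs turned with domains of at least 50 kb alone (28.9% to 10.4%), among 5 alternatives. With domains shortened by 5 kb at both ends, 3 genes entered in 2CLCs, 1 was in a domain in 2CLC alone in DMSO, and 4 were in a domain in mESC alone in dTAG. That last count was also 4 with the midpoint or with every base of the gene body. Including pseudogenes gave 2 entries in mESCs. With starts joined up to 2 Mb apart, cluster coverage was 89.8%, 79.7%, 90.2% and 81.2% in mESC DMSO, mESC dTAG, 2CLC DMSO and 2CLC dTAG. With gaps of up to 10 kb filled, the median distance to an edge was 240 kb in mESC DMSO and 245 kb in 2CLC DMSO, and the median width of the domains holding a start was 2570, 2440, 2570 and 2475 kb in the same order. Counting any base of the gene body, the olfactory and amine list had 6, 4 and 6 genes in mESC dTAG, 2CLC DMSO and 2CLC dTAG. The depth of the libraries is unknown, so what it limits could not be given.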

Other observations

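The annotation also holds 6 pseudogenes of these families. The 5 Tas2r pseudogenes were in a domain in all sorted sets. Taar7c-ps, which lies among the Taar7 genes, was at -3.50 kb with DMSO and 8.50 kb with dTAG in mESCs, and at -38.5 and 16.5 kb in 2CLCs, with the same calls as Taar7d. Outside the Taar cluster, 4 Tas2r genes of cluster D, named after their values were seen, share 50-base words with another place in the genome, namely Tas2r117 (46.0%), Tas2r123 (7.66%), Tas2r110 (7.45%) and Tas2r109 (5.99%). The other Tas2r genes had 0.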
